A study of Mus musculus with 6 samples.

Results

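Myb, Kit and their close relatives were followed in cancer stem-like cells cultured from mouse prostates. The genes were chosen by symbol (Myb, Mybl1, Mybl2, Kit and Kitl) after their differences between the 2 kinds of cells were known, so those differences are given as a description and carry no test. All 5 symbols had a row of their own in the deposited table, out of 9490 genes with a usable row. Every sample came from TRAMP mice, whose transgene expresses a viral T antigen in prostate epithelium under the probasin promoter, so TPIN and TNE cells both derive from that background. TPIN samples (n = 3) were grown from prostates with intraepithelial neoplasia, taken at 10 to 11 weeks of age. TNE samples (n = 3) were grown from mice bearing neuroendocrine tumours, whose age is not stated in the labels. The medium was the same for all, serum-free with EGF and FGF2. Nothing in the labels states whether different mice gave the samples within a group, or whether animals were pooled. Errors and p-values therefore cover only the scatter among these cultures, part of which may be technical.

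Each sample was hybridised to 1 array, and values are RMA expression on the log2 scale, in which 1 unit is a doubling. Array medians ran from 8.82 to 9.10. The table comes without detection calls, so a low value is not a proof of absence. Of 16 marker genes of prostate epithelium 3 had a row, and of 16 neuroendocrine markers 6 had one; Epcam, Cdh1, Chga and Syp were not analysed here, so the labelled cell types could be checked only in part. Array means of 16 fibroblast and smooth muscle markers ran from 11.21 to 11.61 in TPIN and from 7.74 to 8.53 in TNE. In cultures measured in bulk, fewer cells of a type and less RNA per cell cannot be told apart.

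MYB proteins are transcription factors that bind DNA through a conserved set of tryptophan-rich repeats. Myb itself keeps blood progenitors and the stem cells of colon crypts and neural tissue in a dividing, undifferentiated state, and its transcript falls as such cells mature. Mybl2 (B-Myb) is made in nearly every dividing cell, where it joins the MuvB complex to switch on genes of mitosis, and Mybl1 (A-Myb) is best known from male germ cells. Kit is a receptor tyrosine kinase of the PDGF receptor class. Its ligand Kitl, stem cell factor, supports blood stem cells, mast cells, melanocytes and germ cells, and Kit also marks a rare regenerating cell in the prostate.

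Promoter windows from RefSeq (build GRCm38.p6, 250 bases before to 50 after a start site) were matched by symbol for 4 of the 5 genes. The windows of Myb and Mybl2 are shown because they share a 9-base stretch, TTGGCGGGA, a form of the site that E2F factors are known to bind. The Myb window lies at chr10:21160935-21161234 on the minus strand and the Mybl2 window at chr2:163054385-163054684 on the plus strand. Capitals mark this stretch and every copy of AACNG, the core of the sequence that MYB proteins recognise, which reads CNGTT where it lies on the other strand.
Myb: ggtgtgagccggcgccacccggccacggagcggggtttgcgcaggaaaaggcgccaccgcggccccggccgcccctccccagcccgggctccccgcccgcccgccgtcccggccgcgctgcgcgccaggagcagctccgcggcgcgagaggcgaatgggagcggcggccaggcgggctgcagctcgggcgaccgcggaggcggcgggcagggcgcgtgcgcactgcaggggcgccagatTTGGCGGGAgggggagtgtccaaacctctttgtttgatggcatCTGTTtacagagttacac
Mybl2: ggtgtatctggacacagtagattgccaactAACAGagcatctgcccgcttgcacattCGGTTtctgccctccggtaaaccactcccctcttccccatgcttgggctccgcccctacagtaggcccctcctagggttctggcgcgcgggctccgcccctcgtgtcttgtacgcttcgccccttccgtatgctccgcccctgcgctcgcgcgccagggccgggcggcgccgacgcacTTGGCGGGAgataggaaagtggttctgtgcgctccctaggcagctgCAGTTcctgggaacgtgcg

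The shared stretch began at base -11 from the start site of Myb and at base -15 from that of Mybl2, on the strand of the gene in both, and it overlapped no copy of AACNG. It was picked out after the sequences were read. Searched on both strands, it occurred in 88 of 32851 windows in the table, 0.268%. The windows of Myb and Mybl2 were 75.0% and 64.7% G or C, against a median of 52.7% over all windows. AACNG occurred 1 time in the Myb window and 3 times in the Mybl2 window, but 80.3% of all windows hold it. Neither string was found in the windows of Kit and Kitl, which says only that these letters are not in those stretches.

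In all, 7 motifs were searched on both strands, and the shared stretch is the rarest of them. The others were the GC box GGGCGG (in 35.7% of all windows), the E-box CANNTG (72.3%), the CCAAT box (37.4%), the TATA box, searched as TATAAA (13.6%), and the CHR element, searched as TTTGAA (17.9%) and known from promoters of mitotic genes. GC boxes and E-boxes occurred in the windows of Myb, Mybl2, Kit and Kitl. In Mybl2 an E-box at base -18 overlapped the shared stretch, and in Myb an E-box overlapped the copy of AACNG. A TATA box was found in the Kitl window, at base -25, while the CCAAT box and the CHR element were in none of the 4.

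Myb stood far higher in TNE cells. The TPIN arrays 1, 2 and 3 read 6.62, 6.47 and 6.52, and the TNE arrays 1, 2 and 3 read 10.26, 10.93 and 9.76. The TPIN values lay almost on top of each other, and the lowest TNE array stood 3.14 above the highest TPIN array. Group means were 6.53 ± 0.08 (SD, n = 3) for TPIN and 10.32 ± 0.59 for TNE, so that the log2 difference was 3.78, or 13.8-fold. Of all genes, 97.6% had a larger SD than Myb in TPIN, whereas 23.4% had a larger SD in TNE. The TPIN values of Myb lie below every array median (8.82 to 9.10). RMA narrows differences near background, and the part of that in the small TPIN SD was not tested.

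The other MYB genes were also higher on every TNE array, by less. Mybl1 read 8.39, 8.36 and 6.53 in TPIN, against 10.39, 10.03 and 10.22 in TNE. TPIN array 3 stood apart at the low end, while the TNE arrays were close together. The means were 7.76 ± 1.07 and 10.22 ± 0.18, a log2 difference of 2.45 (5.48-fold), and without TPIN array 3 the difference was 1.84. Mybl2 read 8.06, 9.04 and 7.93 in TPIN and 10.01, 10.69 and 10.49 in TNE. Here TPIN array 2 was the highest of its group, and its gap to the lowest TNE array was 0.97. The means were 8.34 ± 0.61 and 10.40 ± 0.35, a log2 difference of 2.05 (4.15-fold).

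Kit, the receptor, was low on all TPIN arrays and spread widely over the TNE arrays. It read 6.79, 6.36 and 6.94 in TPIN and 7.96, 9.37 and 10.53 in TNE. The groups did not overlap, but TNE array 1 lay only 1.03 above the highest TPIN array, and the TNE arrays differed among themselves by up to 5.92-fold. The means were 6.70 ± 0.30 and 9.29 ± 1.28, a log2 difference of 2.59 (6.02-fold), which was 1.97 without TNE array 3 and 3.25 without TNE array 1. Only 4.27% of genes had a larger SD in TNE. Kit and Myb did not share an order in TNE: array 3 had the highest Kit value and the lowest Myb value, and array 2 had the highest Myb value.

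Kitl, the ligand, overlapped between the groups. It read 9.20, 8.96 and 9.90 in TPIN and 9.69, 9.41 and 9.12 in TNE. Its means were 9.35 ± 0.49 and 9.41 ± 0.29, a log2 difference of 0.05, and the difference lay between -0.14 and 0.33 when each array was left out in turn. All TNE arrays lay above all TPIN arrays for 4 of the 5 genes, and 23.3% of the 9490 genes show that arrangement. Since the contrast was known when the 5 were picked, nothing is read from that count.

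**Figure D1:**
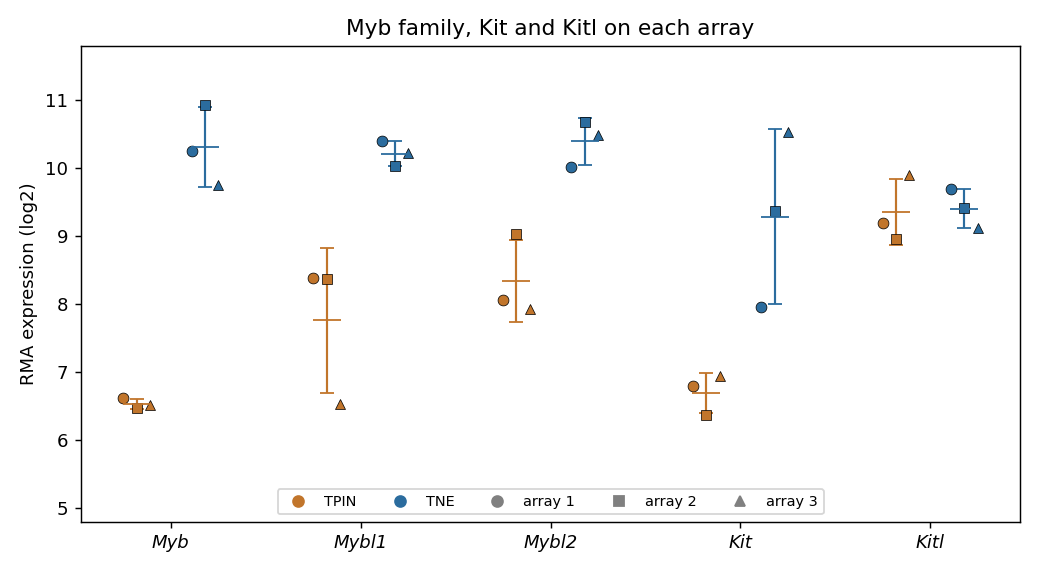
RMA expression (log2, vertical axis) of Myb, Mybl1, Mybl2, Kit and Kitl on each array; orange is TPIN, blue is TNE, symbols tell the arrays apart, and bars are the mean ± SD of 3 arrays. The TPIN values of Myb sit between 6.47 and 6.62, the TNE values of Kit run from 7.96 to 10.53, and the groups overlap for Kitl only.

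Genes with the most similar pattern were found by subtracting each gene's own mean over the 6 arrays and taking the root mean square (RMS) difference from the member, on the log2 scale, over 9281 other named genes. Nearest to Myb were Mpp7 (RMS difference 0.25), Rorb (0.30), Bves (0.32), Rragb (0.38) and Ralgps2 (0.44). Mpp7 is a scaffold protein of cell junctions, Rorb a nuclear receptor of developing retina and cortex, Bves a membrane protein of muscle and epithelium, and Rragb a GTPase of amino acid sensing. Of these, 4 share the order seen for Myb in TNE, with array 2 highest and array 3 lowest; Rragb does not, with 9.06, 8.77 and 8.84.

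Mybl2 had smaller RMS differences from its nearest genes. Its nearest genes were Mcm10 (0.06), which helps start DNA replication, Nsl1 (0.11) and Ndc80 (0.13), which build the kinetochore, Espl1 (0.11), the separase that frees sister chromatids, and Eme1 (0.13), part of a DNA repair nuclease. In all, 275 genes lay within an RMS difference of 0.5 of Mybl2, against 7 for Myb, 13 for Mybl1 and 26 for Kit. The count and the RMS differences depend on how large a member's own differences are, so they do not rank the members. Nearest to Mybl1 were Dnph1 (0.42), the replicative helicase subunit Mcm2 (0.43), Slc35g2 (0.43), the spindle protein Ckap2 (0.44) and the exonuclease Exo1 (0.47).

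Kit lay nearest to Cyfip2 (0.19), a regulator of actin at synapses, Pcdhb9 (0.23), a clustered protocadherin of neurons, Tagln3 (0.25), a neuronal actin-binding protein, Vat1l (0.28), and Pkia (0.30), an inhibitor of protein kinase A. Each of these 5 was lowest of its TNE values on array 1 and highest on array 3, as Kit was. Cyfip2, for example, read 7.80, 9.46 and 10.37 in TNE, and Tagln3 read 9.70, 10.40 and 11.71. Kitl, with little difference of its own, had 3012 genes within 0.5, led by Cdk12 (0.06) and Nudt9 (0.06), followed by Atp9b (0.08), Tecpr1 (0.09) and Dcaf8 (0.09). With 6 arrays in 2 groups, any gene with a like group difference scores well, and a near pattern is a description.

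**Figure D2:**
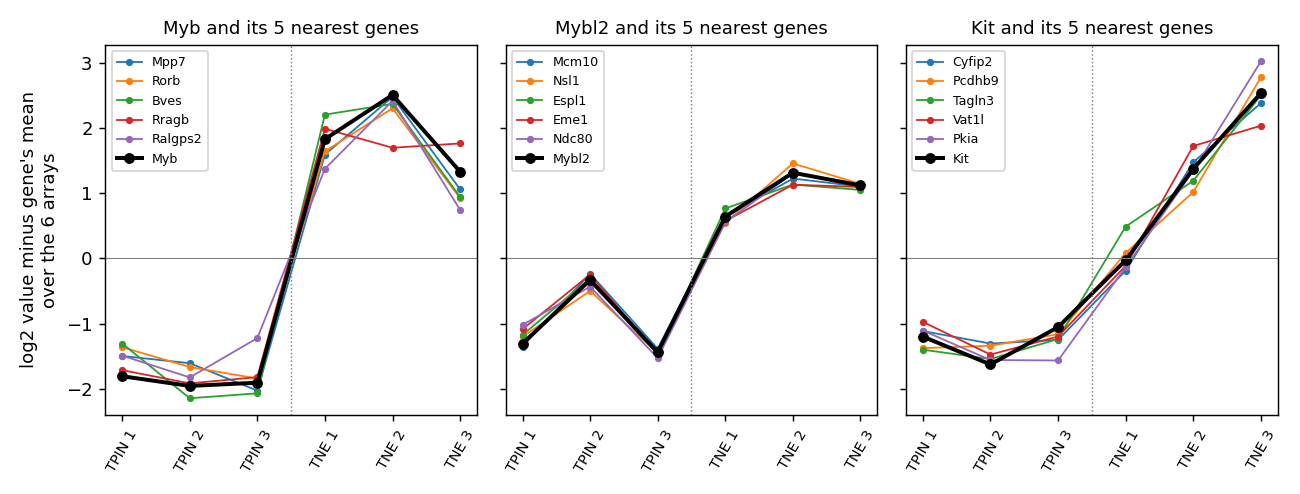
Log2 value minus each gene's mean over the 6 arrays (vertical axis) on every array (horizontal axis) for Myb, Mybl2 and Kit (black) and the 5 nearest genes of each (colours). Lines only join the values of 1 gene, since arrays have no order. The 5 genes nearest to Mybl2 stay within an RMS difference of 0.13 of it, and those nearest to Kit share its low value on TNE array 1 and its high value on TNE array 3.

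Genes known to work with or under these regulators were put into lists, chosen with earlier results of these data known. They were tested with limma over all 9490 genes at an adjusted p below 0.05. Over all genes 20.5% passed, 10.3% higher in TNE and 10.2% lower, with a median log2 difference of -0.02.

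Partners of MYBL2 rose in part. Of 18 measured genes of the MuvB and DREAM complexes and their E2F partners 7 rose, none fell and 11 did not pass by limma, and the list's median log2 difference was 1.27. At an unadjusted p below 0.05, 13 were higher and 1 lower. Lin9, the MuvB subunit that MYBL2 needs in order to act, was 4.71-fold higher, rising from 6.98 ± 0.69 in TPIN cells to 9.22 ± 0.30 in TNE cells (limma adjusted p = 0.00864). Ccnf, a cyclin that curbs MYBL2, was 5.20-fold higher (limma adjusted p = 0.0109). The pocket protein Rbl1 and the E2F dimer partner Tfdp1 were 3.27-fold and 2.70-fold higher, and both lost their call without TPIN array 1 and without TNE array 2. The count of rises was 2 without either of these arrays.

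Most of the measured targets of that complex rose. Of 37 measured genes of mitosis bound by MYBL2 and MuvB 31 rose and none fell by limma, and all 37 differences were positive, with a median of 2.49. At an unadjusted p below 0.05, 34 were higher and 0 lower. The phosphatases Cdc25c and Cdc25b, which open the way into mitosis, were 8.04-fold and 3.24-fold higher. Ncapg, a condensin subunit, was 8.75-fold higher, the spindle pole gene Aspm 8.22-fold, and topoisomerase Top2a 8.80-fold (9.18 ± 1.10 in TPIN, 12.31 ± 0.40 in TNE). The checkpoint kinase Bub1b was 5.32-fold, survivin (Birc5) 5.28-fold and the kinesin Kif20b 7.83-fold higher. For these 8 genes limma adjusted p lay between 0.00452 and 0.00847, and none lost its call without any 1 array.

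The mean of the 37 mitotic genes on each array followed the same pattern as Mybl2. It was 7.53, 9.41 and 7.35 in TPIN, against 10.36, 10.70 and 10.66 in TNE. TPIN array 2, the highest TPIN array for Mybl2, was also the highest for this mean. The number that rose was 15 without TPIN array 1 and 16 without TNE array 2. Lists of mitotic genes and Mybl2 were both known to be higher in TNE from earlier work on these arrays, so this match adds no independent evidence.

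Genes that share the 9-base stretch of the Myb and Mybl2 windows were looked at as well. Apart from Myb and Mybl2, 40 measured genes had it in a window. Of these 13 rose, 2 fell and 25 did not pass, with a median log2 difference of 0.27. Over all genes 10.3% were higher in TNE and 10.2% lower. Prim1, the catalytic subunit of DNA primase, had a log2 difference of 4.02 (limma adjusted p = 0.00165). Others that rose were the histone chaperone subunit Chaf1a (2.09), DNA ligase Lig1 (2.55), the histone mRNA binder Slbp (1.88), the kinetochore gene Kntc1 (3.60) and the DNA repair helicase Brip1 (2.46). Phf11d (-3.61) and Ccdc102a (-1.22) fell. These 8 genes were named after their values were seen. The number that rose was 9 without any 1 of TPIN arrays 1 and 2 and TNE array 2, and no gene fell without TNE array 2. Only 1 fell without any 1 of TPIN arrays 1 and 2 and TNE array 3.

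MYB itself is helped by acetyltransferases and C/EBP factors. A wider list of its cofactors and regulators, not all of them helpers, had 15 measured genes. Of these 1 rose, 1 fell and 13 did not pass, with a median of -0.39. Cebpd, a C/EBP factor, was 2.91-fold lower, at 8.94 ± 0.24 in TPIN cells and 7.40 ± 0.55 in TNE cells (limma adjusted p = 0.0206), and Ppid, a cyclophilin that binds MYB, was 2.02-fold higher (limma adjusted p = 0.0383). Each lost its call without any 1 of 4 arrays. By limma none of the 15 passed without TPIN array 1, TPIN array 2 or TNE array 2, and 1 passed without TNE array 1 or TNE array 3.

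Of 20 measured genes that other work ties to MYB as targets, 1 rose, 5 fell and 14 did not pass, with a median of -0.85. At an unadjusted p below 0.05, 2 were higher and 9 lower. The gene that rose was Cxcr4, a chemokine receptor of stem and progenitor cells. It read 6.79, 6.40 and 7.08 in TPIN and 9.36, 9.53 and 9.37 in TNE, a 6.32-fold difference (SE 0.28 on the log2 scale, limma adjusted p = 0.00154). Snai2 and Zeb1, transcription factors of the mesenchymal state, were 17.0-fold and 2.77-fold lower, and Birc3, an inhibitor of cell death, was 5.56-fold lower (limma adjusted p between 0.00538 and 0.0127). Ptgs2 and Cd34, named after their values were seen, also fell. Mmp9, Gata3 and Igf1r did not pass but were lower on every TNE array, and Lmo2 did not pass but was higher on every TNE array. They too were picked with their values known.

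Well-known MYB targets were among those that did not pass, and they are named here after their values were seen. Myc read 9.34, 11.10 and 9.27 in TPIN and 10.30, 9.88 and 7.10 in TNE (limma adjusted p = 0.507). Bcl2 had a log2 difference of -0.16 (limma adjusted p = 0.780). Mycn, a relative of Myc, read 7.80, 7.96 and 7.83 in TPIN and 7.30, 11.98 and 10.99 in TNE, so that TNE array 1 lay below every TPIN array (limma adjusted p = 0.157). The count of target genes past the threshold was 3 without TNE array 2, and Zeb1 lost its call there. It was 4 without TPIN array 2. The mean of the fibroblast markers, near 11.4 in TPIN and 8.02 in TNE, moved in the direction of Snai2 and Zeb1, and its part in their fall was not tested.

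**Figure D3:**
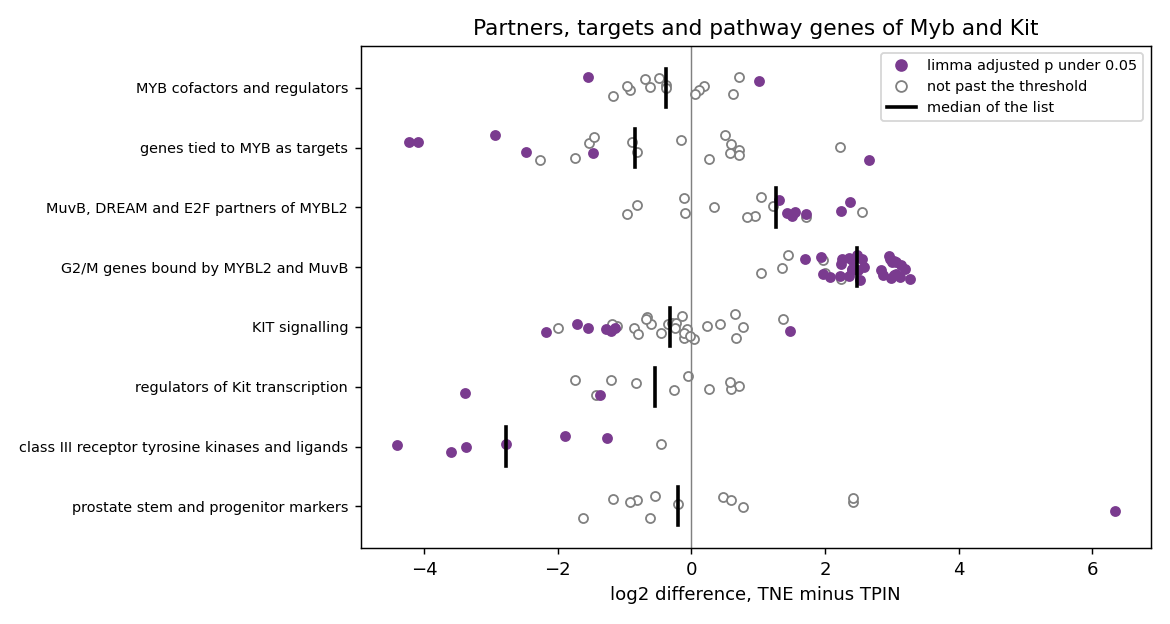
Log2 difference, TNE minus TPIN (horizontal axis), of each measured gene in 8 lists around Myb and Kit; filled points have a limma adjusted p below 0.05, open points do not, and black bars are list medians. The 37 mitotic genes all lie to the right of 0 with a median of 2.49, while the 20 genes tied to MYB lie on both sides with a median of -0.85.

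Below the receptor, the KIT signalling list held 32 measured genes. Of these 1 rose, 6 fell and 25 did not pass, with a median of -0.32, so that 21.9% passed, near the 20.5% of all genes. Cblb, a ubiquitin ligase that removes active receptors, was 4.53-fold lower in TNE, and Rasa1, which switches RAS off, was 3.28-fold lower. Spred1, an inhibitor of the RAS to ERK route, and Sh2b3, an adaptor that damps KIT, were 2.43-fold and 2.30-fold lower. Other genes of the list known as restraints, given with their values known, did not pass: Cbl (log2 difference -0.35), Spred2 (-0.80), Socs6 (-0.29), Dok1 (-1.11), Grb10 (-1.99) and the phosphatase Ptpn6, which was higher on every TNE array (0.77). Stat3, a transcription factor, was 2.22-fold lower, and Pik3cb, a PI3-kinase catalytic subunit, was 2.79-fold higher. Limma adjusted p ran from 0.00624 for Cblb to 0.0456 for Stat3.

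Cblb read 10.60, 10.59 and 10.18 in TPIN and 8.10, 7.82 and 8.92 in TNE. It and Rasa1 kept their calls without any 1 array, Spred1 lost its call without TNE array 2, and Sh2b3, Stat3 and Pik3cb each lost theirs without any 1 of 5 arrays. The remaining gene that fell, Shc1, an adaptor, was named after its values were seen (log2 difference -1.55). The count past the threshold was 3 without TPIN array 1 or 2, 2 without TNE array 2 and 4 without TNE array 3. Of the core route, the adaptor Grb2 (log2 difference 0.65), the RAS activator Sos1 (-0.10), the phosphatase Ptpn11 (-0.14) and the kinase Map2k1 (-0.01) missed the threshold; these were picked as examples with their values known.

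Factors that drive Kit transcription in other cell types were read next. Of 12 measured, none rose and 2 fell by limma, with a median of -0.54; at an unadjusted p below 0.05, 1 was higher and 5 lower. The share past the threshold, 16.7%, is near that of all genes. Lmo2 (log2 difference 0.71) and Cbfb (0.59), given with their values known, were higher on every TNE array and did not pass. Mitf, the factor that switches on Kit in mast cells and melanocytes, read 10.98, 10.39 and 10.07 in TPIN and 7.05, 7.38 and 6.87 in TNE. Every TNE array was far below every TPIN array, a 10.4-fold difference (SE 0.33 on the log2 scale, limma adjusted p = 0.00113). Gata2, a factor of blood progenitors and mast cells, was 2.57-fold lower (10.01 ± 0.11 in TPIN cells, 8.64 ± 0.15 in TNE cells, limma adjusted p = 0.0103). Both kept their calls without any 1 array. Without TPIN array 3 the count was 4, of which 1 rose.

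The class of receptors to which KIT belongs, with its ligands, was represented by 2 other receptors, Pdgfra and Pdgfrb, and 5 ligands. Csf1r, Flt3, Flt3l and Pdgfb were not analysed here. Of these 7 genes 6 fell and none rose by limma, also at an unadjusted p below 0.05, and all 7 differences were negative, with a median of -2.77. The receptor Pdgfrb was 21.2-fold lower, and the ligands Pdgfd, Csf1 and Pdgfc were 6.82-fold, 12.1-fold and 3.69-fold lower (limma adjusted p between 0.000378 and 0.0133). Pdgfra, named after its values were seen, was 10.3-fold lower (limma adjusted p = 0.0272), a call lost without any 1 TPIN array. Pdgfrb and Pdgfra are fibroblast markers as well. The mean of the 16 fibroblast markers, of which 13 fell and none rose, was 11.42 ± 0.20 in TPIN and 8.02 ± 0.44 in TNE, and its part in these falls was not tested. The count was 4 without TPIN array 1.

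Of 13 measured markers of prostate stem and progenitor cells 1 rose and 12 did not pass, with a median of -0.19. At an unadjusted p below 0.05, 3 were higher and 0 lower. Cd24a, a surface glycoprotein, was the gene that rose, at 4.28, 4.37 and 4.50 in TPIN and 10.30, 10.10 and 11.76 in TNE (limma adjusted p = 0.000378). The adhesion receptor Cd44 (log2 difference -1.61), the Polycomb gene Bmi1 (0.48), the laminin receptor subunit Itga6 (2.42) and the transcription factor Sox2 (2.42) missed the threshold, and were picked as examples with their values known. Across the list the array means averaged 9.03 ± 0.41 in TPIN and 9.58 ± 0.45 in TNE, so the mean and the median differ in sign. Cd24a had by far the largest difference of the list, 6.34, which raises the TNE mean. The count was 2 without TNE array 1, 2 without TNE array 3 and 3 without TPIN array 3.

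Since Myb and Kit mark blood progenitors, and Kit marks mast cells and melanocytes, markers of these cells were read on every array. Of 20 haematopoietic markers 6 had a row, and none passed by limma, nor did any have an unadjusted p below 0.05. Their mean was 7.11, 6.55 and 6.47 in TPIN and 6.68, 6.28 and 8.27 in TNE. Ikzf1 was highest on TNE array 1, at 8.08, 6.65 and 7.37 on TNE arrays 1, 2 and 3. The mean was highest on TNE array 3, where Cd53 read 10.03, Itgb2 9.11 and Lyz2, named after its values were seen, 9.39. On TNE array 2 Cd53 and Itgb2 read 6.65 and 6.96. The highest Kit value was thus on the array with the highest haematopoietic mean, and its part in that value was not tested. TNE array 2, with the lowest haematopoietic mean of the 6, had Kit at 9.37 and the highest Myb value, 10.93. Without TNE array 3 the differences were 1.97 for Kit and 4.06 for Myb.

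Of 11 mast cell markers 3 had a row, all of them also expressed in other cells, and none rose by limma, also at an unadjusted p below 0.05: Gata2 fell, and Cd63 and Srgn did not pass. Srgn read 11.96, 6.97 and 6.77 in TPIN and 7.17, 6.30 and 9.56 in TNE, so TPIN array 1 was the highest. The defining mast cell genes Cpa3, Tpsb2 and Fcer1a and all 8 melanocyte markers were not analysed here. Of 5 endothelial markers Cdh5 rose (3.08-fold), Eng fell (11.9-fold) and Flt1 fell (2.93-fold), the last a call lost without any 1 of 5 arrays. Of 6 neuroendocrine markers 3 rose, Uchl1 by 6.35-fold, Syt1 by 9.67-fold and Snap25 by 3.98-fold. The other 3, given with their values known, did not pass: Eno2, a glycolytic enzyme of neurons, was lower on every TNE array (log2 difference -0.79), the prohormone convertase Pcsk1 had -0.42 and the adhesion gene Ncam1 had 0.04. At an unadjusted p below 0.05, 3 of the 6 were higher and 1 lower. The mean of the 6 was 9.08, 8.11 and 8.23 in TPIN, against 9.07, 9.73 and 10.00 in TNE. It ran in the order of Kit over the TNE arrays. TPIN array 1, at 9.08, and TNE array 1, at 9.07, had nearly the same mean. The part of this mean in the Kit values was not tested. The calls of Syt1 and Snap25 were each lost without any 1 of 3 arrays. The epithelial genes Krt8, Krt18 and Foxa1 did not pass, but their groups did not overlap. Foxa1 was higher on every TNE array (log2 difference 2.12), while Krt18 (-0.66) and Krt8 (-0.33) were lower on every TNE array. At an unadjusted p below 0.05, 1 of these was higher and 1 lower.

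**Figure D4:**
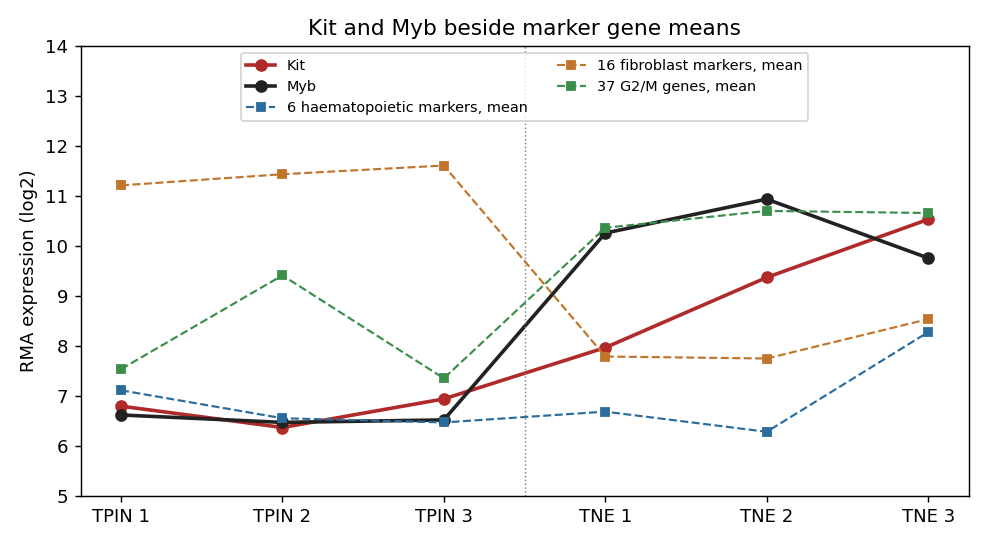
RMA expression (log2, vertical axis) of Kit and Myb and the means of 6 haematopoietic markers, 16 fibroblast markers and 37 mitotic genes on each array (horizontal axis). Lines only join the points of 1 measure. The haematopoietic mean is highest on TNE array 3, at 8.27, where Kit is highest and Myb is lowest of the TNE arrays, and lowest on TNE array 2, at 6.28, where Kit reads 9.37.

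MicroRNAs are small RNAs that pair with transcripts through a seed at their bases 2 to 8. Kit is a known target of miR-221 and miR-222, and Myb of miR-15a and miR-34a. The arrays carried rows for the genes of these 4 microRNAs, which read precursor RNA and not the mature form. The sequences, from RefSeq (GRCm38.p6), are shown because miR-221 and miR-222 share 1 seed, in capitals, and so address the same sites.
miR-221-3p: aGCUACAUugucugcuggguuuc
miR-222-3p: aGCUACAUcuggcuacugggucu

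These rows were chosen after their values were seen and are given as values only. Mir221 read 6.68, 6.78 and 6.36 in TPIN and 6.39, 6.49 and 6.01 in TNE, and Mir222 read 6.97, 6.63 and 6.32 in TPIN and 6.46, 6.51 and 5.96 in TNE. The groups overlapped for both, and both were lowest on TNE array 3. Mir34a read 5.76, 5.15 and 5.37 in TPIN and 4.97, 4.84 and 4.72 in TNE, all TNE arrays below all TPIN arrays. Mir15a overlapped, at 7.52 ± 0.95 in TPIN and 8.41 ± 0.35 in TNE.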

How the data were processed

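RNA from 6 cultures was measured on single-colour Affymetrix whole-transcript arrays. The deposited log2 values were made by the authors with RMA, per the submitters' processing notes; the sources used here give no version. RMA narrows differences near background. The table holds 10361 rows, part of the array. By the array annotation 9496 rows carried 1 symbol, 374 carried several and 491 carried none, and the row of highest mean was kept for 6 genes with more than 1 row, leaving 9490 genes. Groups came from the titles and cell type labels (a free-text field mentions intraepithelial neoplasia even for TNE samples), and replicate numbers follow series order and pair nothing. The number of arrays limits the precision.

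TNE was set against TPIN with limma 3.58.1, run in R 4.3.3 (empirical Bayes, two-sided, Benjamini-Hochberg over all genes, threshold 0.05). Members and lists were chosen with earlier results of these data known. The genes named were all members and, from each list, the 4 with the smallest p past the threshold (8 for mitotic genes, 6 for KIT signalling). From each cell type list they were the 3 of highest mean and up to 3 past the threshold. The 5 nearest genes of each member were also named, and others are marked. The fibroblast genes Dcn, Lum and Col3a1 met this rule but entered only through the mean of their list. Tested on simulated data of 9490 genes with 200 changed, limma recovered 4.3% of genes at a log2 difference of 1, 54.1% at 2 and 80.9% at 3. In the real comparison 1941 genes passed, and the adjustment is less strict when more genes differ. These shares therefore do not give the recovery of the real test. Promoter and microRNA sequences were matched by symbol and name.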

Additional observations from a re-analysis of the deposited data

How the results depend on the processing

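The settings tried were leaving out each array, quantile normalization applied again, subtracting array medians, leaving out the dimmest genes, a trend in the prior variance, and keeping every row with 1 symbol. Under the scalings and the omissions the log2 difference stayed between 3.47 and 4.06 for Myb, 1.84 and 2.77 for Mybl1, 1.85 and 2.40 for Mybl2, and 1.97 and 3.25 for Kit; each moved by less than its SD pooled over both groups, though not always by less than the SD of each group. Kitl ran from -0.14 to 0.33, on both sides of 0. Leaving out 1 array changed counts past the threshold, which ranged from 357 to 1311 for genes higher in TNE and from 475 to 1285 for genes lower. By list the ranges were 0 to 3 for MYB cofactors, 3 to 8 for MYB targets, 2 to 9 for MYBL2 partners, 15 to 37 for mitotic genes, 2 to 6 for KIT signalling, 2 to 4 for regulators of Kit, 4 to 6 for receptors of the KIT class and their ligands, and 1 to 3 for progenitor markers. With dim genes left out the KIT class had 4. The count for cofactors was 4 with quantile normalization applied again, and for progenitor markers 0 with dim genes left out, since Cd24a was then not tested. Cxcr4 and Cdh5 were not tested there either, and of the MYB targets 0 rose and 6 fell in that setting. Other causes were not tested. Nearest genes by Pearson correlation shared 1 of 5 with the RMS measure for Myb, Mybl2 and Kit, 0 for Mybl1 and 3 for Kitl. No paired analysis was possible because replicate numbers follow series order.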
